A study of Homo sapiens with 8 samples.

Results

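The ABC transporters are a family of membrane proteins that use the energy of ATP to move lipids, conjugated metabolites, drugs and other molecules across membranes. The family was taken here as every gene whose platform symbol starts with ABC, a subfamily letter from A to G and a digit, among probe sets that name a single gene. This rule gave 99 probe sets for 45 genes, out of 19775 genes in all, and each gene was represented by its probe set with the highest mean over the 8 arrays. It leaves out family members that carry other symbols, such as CFTR, TAP1 and TAP2, and 2 probe sets that name several genes. By their RefSeq records, 4 of the 45 are pseudogenes (ABCA11P, ABCA17P, ABCC13 and ABCC6P1).

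Expression was measured in A549 cells, an established human lung adenocarcinoma line, on 8 Affymetrix U133 plus 2.0 arrays, with 2 arrays in each of 4 groups. Monolayers (2D) and spheroids made in hanging drops (3D) were each given TNF at 10 ng/ml together with TGF (TGFβ in the study's methods) at 2 ng/ml, in 2 rounds of 48 h, or served as controls, which received vehicle by the methods. All 4 groups come from a single cell line, and by the methods both culture types were kept in low-serum medium during treatment. The methods call the array pairs technical duplicates and the deposited design calls them biological replicates, so the p-values measure the spread between arrays, which may be technical.

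Efflux by the ABCC (MRP) proteins and ABCG2 works in series with cytosolic enzymes that attach glutathione, glucuronate or sulfate to a compound, since the conjugates leave the cell through these pumps. Other members stay inside the cell, where ABCD proteins bring fatty acyl chains into peroxisomes and the mitochondrial ABCB proteins sit near heme and iron-sulfur metabolism. ABCA1 and ABCG1 export cholesterol and phospholipid to lipoproteins, and ABCE1 and the ABCF proteins have no membrane-spanning part and act on ribosomes.

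The deposited values are log2 expression values per probe set. Array medians lay between 2.43 and 2.50, and a group was counted as near background when both of its arrays fell below their medians. By this rule 17 of the 45 genes were near background in all 4 groups, and 28 were above background in at least 1 group. The genes near background throughout were ABCA4, ABCA6 and ABCA13; ABCB1, ABCB4, ABCB5 and ABCB11; ABCC8, ABCC9, ABCC11, ABCC12, ABCC13 and ABCC6P1; ABCD2; and ABCG4, ABCG5 and ABCG8. They include ABCB1, which encodes P-glycoprotein, a drug pump of multidrug resistance, and ABCB11, the bile salt export pump. Among the 28, ABCA9 rose above the array median on 1 treated 3D array alone. The values of ABCA3, the surfactant lipid transporter of alveolar type II cells, were 7.36 on 5 of the 8 arrays, and ABCB8 likewise held 3.93 on 5 arrays, so these probe sets carried little information on the groups.

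The arrays were first set against markers of the labelled cells. All 5 epithelial markers (KRT8, KRT18, KRT19, EPCAM and CDH1) were above background in every group, whereas PTPRC and CD3E of leukocytes, VWF, CDH5 and KDR of endothelium, DCN and THY1 of fibroblasts, and ALB and SLC10A1 of liver were near background in every group. Of the same lists, CD14, CD79A, PECAM1, LUM, CYP3A4 and SERPINA1 were not near background in any group by the rule on both arrays. CD79A and LUM still lay close to the array medians. Their values were as low as 2.54 ± 0.36 for CD79A in 2D controls and 2.45 ± 0.29 for LUM in 3D controls (SD). PDGFRA was near background in 3 of the 4 groups. The log2 of the summed epithelial markers was 15.80 to 15.82 in 2D controls, 15.43 to 15.52 in treated 2D, 15.44 to 15.53 in 3D controls and 14.68 to 14.83 in treated 3D cultures. It was thus lowest in treated 3D cultures, as were the 9 ABC genes that fell on treatment in 3D. KRT8, KRT18, EPCAM and CDH1 fell on treatment in 3D, and KRT19 did not pass. KRT19 was higher in 3D than in 2D, in controls by 1.42 and in treated cultures by 2.17 (log2; limma adjusted p = 0.0216 and 0.00441). CD14 was the one leukocyte marker that fell in treated 3D cultures, and the summed leukocyte list lay at 8.43 to 9.72 in the other groups and 5.79 to 6.45 there. Of the liver markers, SERPINA1 was higher in treated 3D than in treated 2D cultures, CYP3A4 was higher in 3D than in 2D controls and fell on treatment in 3D (−0.70, limma adjusted p = 0.00187), and the summed liver list lay at 10.62 to 11.99 in 2D, 12.74 to 12.95 in 3D controls and 13.57 to 13.70 in treated 3D cultures. The summed endothelial list ranged from 5.07 to 5.28 over all arrays, the fibroblast list from 4.29 to 5.50 and the alveolar type II list from 5.20 to 5.90. The part of these shifts in the ABC results was not tested. In such bulk cultures, fewer cells that express a gene and less RNA per cell cannot be told apart.

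Treatment of spheroids lowered 9 ABC genes and raised none by the limma test at an adjusted p of 0.05. These were the efflux pumps ABCC2, ABCC3, ABCC4, ABCC10 and ABCG2, the mitochondrial ABCB6 and ABCB10, the peroxisomal ABCD3 and the lipid transporter ABCA12, with log2 fold-changes from −1.94 to −0.62. The share lowered was 20% of the 45 genes, against 10.8% of all 19775 genes lowered and 5.53% raised in the same comparison. All 9 had a mean log2 value of at least 4, as did 23 ABC genes in all. Among genes that bright, 39.1% of the 23 ABC genes and 19.4% of all 10612 genes were lowered. The median log2 fold-change of the 23 ABC genes was −0.35, and that of all genes that bright was −0.19. At an unadjusted p under 0.05 in either direction, 31.1% of the ABC genes (13 lower and 1 higher of 45) and 31.2% of all genes differed. Of all 19775 genes, 4103 were lower and 2067 higher, so the shares matched only with both directions pooled. The count of 9 depends on single arrays, since it was 3 without 3D control replicate 1 and 5 without treated 3D replicate 1. Calls of ABCC4 and ABCD3 held without every single array in turn, and that of ABCB6 was lost without either 3D control array.

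The same treatment of monolayers gave no call in the family, where 0.197% of all genes were called. At an unadjusted p under 0.05, 8 of the 45 genes (17.8%) differed in 2D in the limma fit, against 10.7% of all genes (1133 lower and 991 higher). Of these 8, ABCA7, ABCA8, ABCB6, ABCB8, ABCC2, ABCC4 and ABCG2 were lower in treated cultures and ABCD4 was higher. The probe set of ABCB8 held 3.93 on 5 of the 8 arrays and carried little information on the groups. ABCB6 had log2 values of 8.39 and 8.28 in 2D controls and 7.22 and 7.44 in treated 2D cultures. Its difference in 2D (log2 fold-change −1.0, 95% interval −1.26 to −0.73) had a limma adjusted p of 0.0901. It was about as large as the difference in 3D (−0.93, limma adjusted p = 0.0127), so the missing call in 2D does not show that ABCB6 responded in 3D alone.

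**Figure D1:**
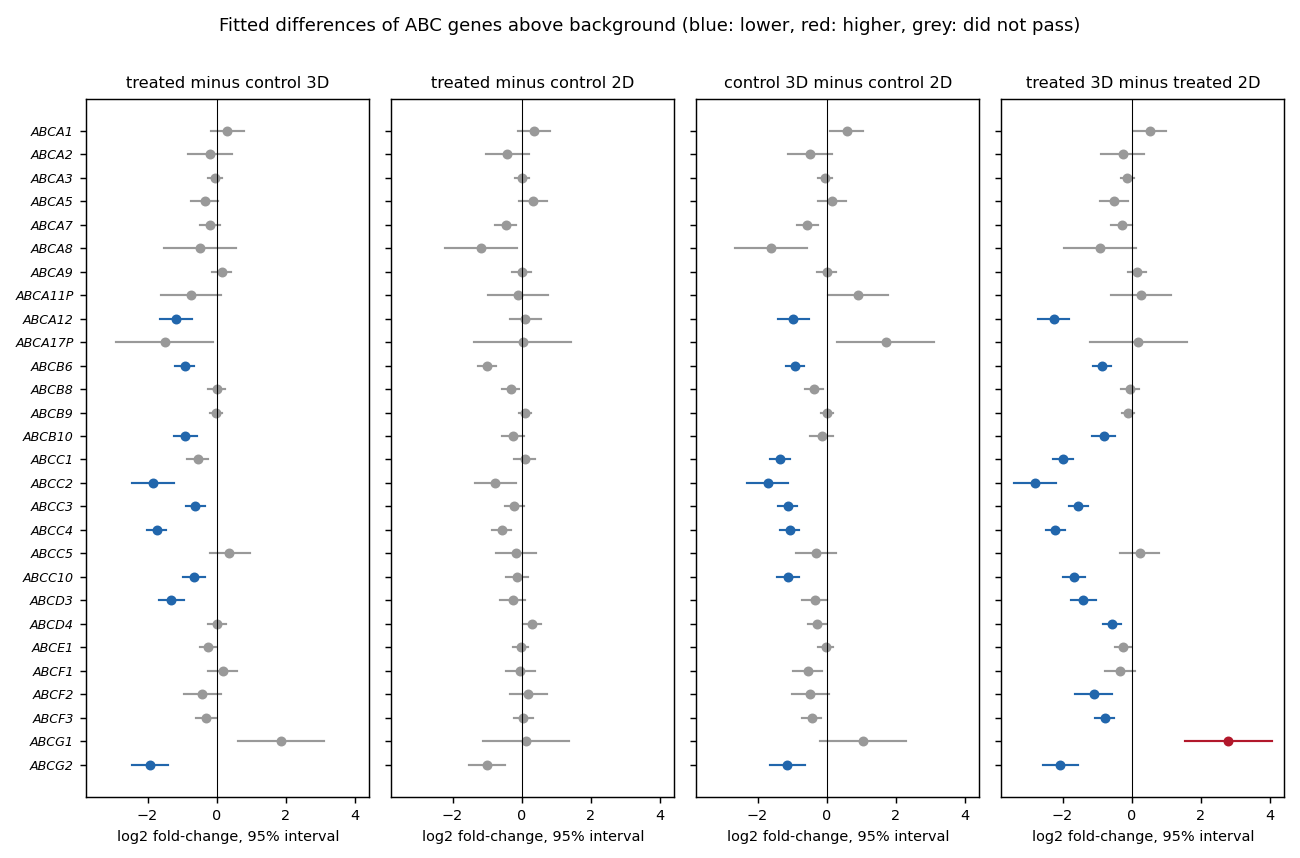
Log2 fold-change (x axis) with its 95% interval from the limma fit for the 28 ABC genes above background in at least 1 group (rows), in 4 comparisons (panels). Blue and red mark genes called lower and higher at an adjusted p of 0.05, and grey marks genes that did not pass. Calls in blue number 9 for the treatment of 3D cultures, 0 for that of 2D cultures, 8 between controls and 13 between treated cultures, where ABCG1 is the 1 gene in red.

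Between untreated cultures, spheroids had lower values than monolayers for 8 ABC genes and higher values for none. These were ABCA12, ABCB6, ABCC1, ABCC2, ABCC3, ABCC4, ABCC10 and ABCG2, or 17.8% of the family, against 4.9% of all genes lower and 5.77% higher. Among genes with a mean of at least 4, the share lower was 34.8% of the 23 ABC genes and 8.71% of all. The median log2 fold-change was −0.02 for all such genes and −0.48 for the 23 ABC genes. Without 3D control replicate 1 the count was 2, and without 3D control replicate 2 it was 3, of which 1 was lower. Without 2D control replicate 1 it was 4, and it was 5 without any 1 of the treated arrays. ABCC1 was the one gene of the 8 that was called without every single array in turn. At an unadjusted p under 0.05, 14 of the 45 genes were lower and 3 higher (37.8% in either direction). Of all 19775 genes, 2659 were lower and 2641 higher (26.8%).

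Between treated cultures, 13 ABC genes were lower in 3D than in 2D and ABCG1 was higher. The 13 were those 8 and ABCB10, ABCD3, ABCD4, ABCF2 and ABCF3. The share lower was 28.9% of the 45 genes, against 14.5% of all genes, and the share higher was 2.22% against 9.06%. Among genes with a mean of at least 4, 56.5% of the 23 ABC genes and 26.6% of all were lower, and 4.35% and 15% were higher. The median log2 fold-change was −0.78 for the 23 ABC genes and −0.17 for all genes that bright. Leaving out any 1 array gave 10 to 13 calls, and 9 of the 14 genes were called without every single array in turn. The calls of ABCB10, ABCD4, ABCF2, ABCF3 and ABCG1 were lost without at least 1 array. This comparison and the treatment of 3D cultures share the treated 3D arrays, and the comparison of controls shares the 3D control arrays with that treatment, so the lists are not independent of each other.

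The efflux pumps of conjugates and drugs that were above background were ABCC1, ABCC2, ABCC3, ABCC4, ABCC5, ABCC10 and ABCG2. All of them but ABCC5 were lower in 3D than in 2D, in controls and in treated cultures, and ABCC2, ABCC3, ABCC4, ABCC10 and ABCG2 fell on treatment in 3D. The pumps were put together after their values had been seen, so their counts carry no weight of their own. ABCC2, ABCC3, ABCC4 and ABCG2 shared 1 order with no overlap between groups, from 2D controls down through treated 2D and control 3D to treated 3D cultures. This order held for 8.89% of the ABC genes and for 3.24% of all genes. The first step of it, treatment in 2D, did not pass for any of the 4. Other probe sets did not all keep this order. The other ABCC4 probe sets above background overlapped between treated 2D cultures and 3D controls. They read 7.92 and 8.24 against 8.15 and 8.23, and 7.23 and 7.70 against 7.11 and 7.54. Of the other ABCC3 probe sets, some kept the order and some overlapped between the 2D groups. ABCG2 kept it narrowly, at 8.29 in treated 2D against 8.28 in 3D controls.

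**Figure D2:**
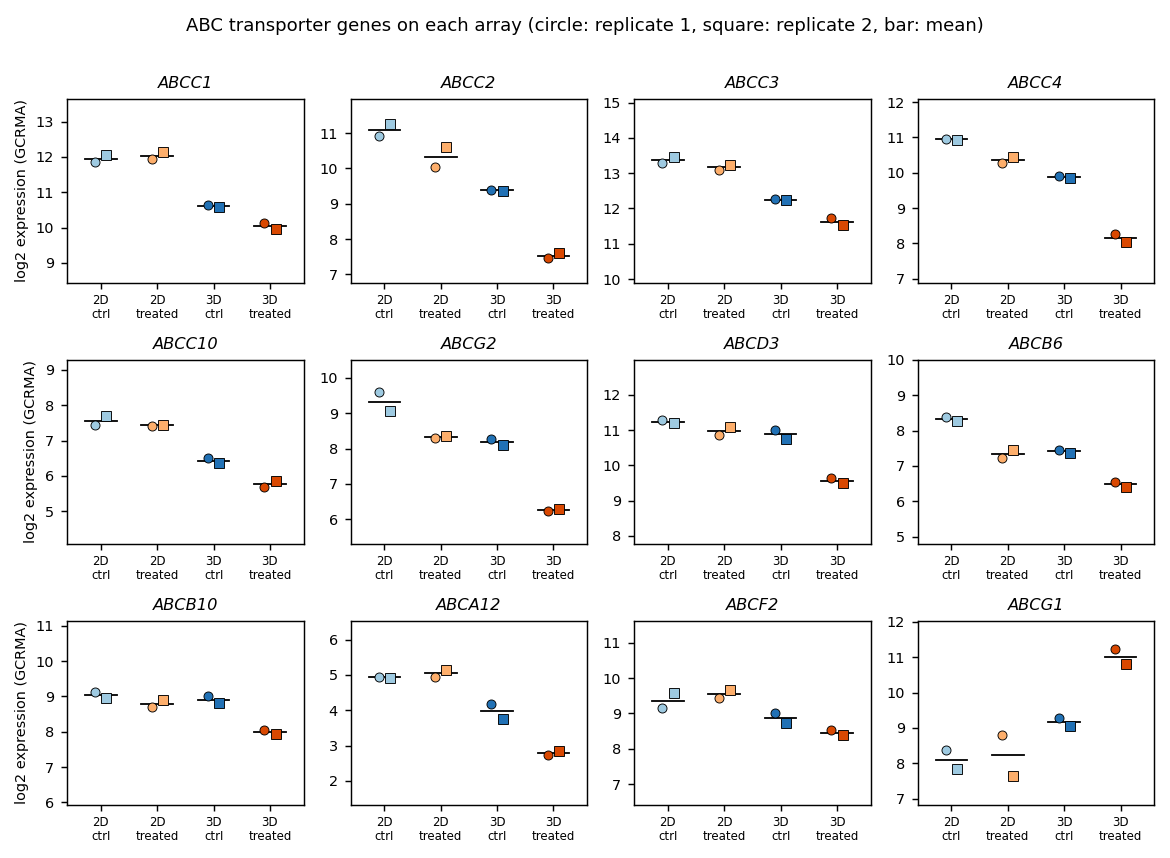
Log2 expression values (y axis, each panel spanning the same number of log2 units) of 12 ABC genes on each of the 8 arrays, by group (x axis), with replicate 1 as a circle, replicate 2 as a square and the mean of both as a bar. In 11 of the panels both treated 3D arrays lie below the other 6 arrays, and in the panel of ABCG1 they lie above them.

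ABCC4 (MRP4, chr13:95019835-95301451 in GRCh38.p14) exports cyclic nucleotides, prostaglandins and bile acids. Its log2 values were 10.95 and 10.94 in 2D controls, 10.28 and 10.44 in treated 2D, 9.91 and 9.86 in 3D controls, and 8.28 and 8.03 in treated 3D cultures. Replicates lay within 0.25 of each other in every group, and no group overlapped another. Treatment in 3D lowered ABCC4 3.32-fold (log2 fold-change −1.73, standard error 0.10, limma adjusted p = 0.00409), and this call was lost under 1 of 16 alternative settings. In 2D the difference was −0.58 (limma adjusted p = 0.208). The difference between both responses was −1.15 (standard error 0.14, limma adjusted p = 0.0456), which made ABCC4 the 1 ABC gene called for a response that differed between 3D and 2D, where 3.26% of all genes were called. That call was lost when any 1 of the 2D arrays or of the 3D control arrays was left out. The 2 other ABCC4 probe sets above background gave differences between responses of −1.15 and −1.67 and did not pass (limma adjusted p = 0.0708 and 0.105). All 3 passed for the response in 3D, at −1.73, −1.80 and −1.94. The lower value in 3D than in 2D controls (−1.06, limma adjusted p = 0.0171) was lost without any 1 control array and did not pass in the other 2 probe sets (−0.54 and −0.41).

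ABCC2 (MRP2, chr10:99782640-99852594) carries glutathione and glucuronide conjugates out through the apical membrane. Its log2 values were 10.91 and 11.26 in 2D controls, 10.05 and 10.60 in treated 2D, 9.40 and 9.35 in 3D controls, and 7.47 and 7.59 in treated 3D cultures. The groups stepped down without overlap, and replicates differed most in treated 2D cultures. ABCC2 was 3.6-fold lower in treated than in control spheroids, 3.27-fold lower in control spheroids than in control monolayers (limma adjusted p = 0.0282) and 6.95-fold lower in treated spheroids than in treated monolayers (limma adjusted p = 0.00516). The first of these calls was lost when any 1 of the 3D arrays was left out, and the second when any 1 of the 3D or 2D control arrays was. The response in 3D minus that in 2D was −1.09 on the log2 scale, with a limma adjusted p of 0.205.

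ABCG2 (BCRP, chr4:88090264-88231626), a half-transporter that works as a dimer, exports urate, sulfated steroids and many drugs. Its log2 values were 9.59 and 9.07 in 2D controls, 8.29 and 8.37 in treated 2D, 8.28 and 8.10 in 3D controls, and 6.23 and 6.29 in treated 3D cultures. Treated monolayers and control spheroids lay almost at the same value, and treated spheroids lay far below both. Treatment in 3D lowered ABCG2 3.82-fold (log2 fold-change −1.94, standard error 0.19, limma adjusted p = 0.0109), a call that was lost without 3D control replicate 1. Treated spheroids were 4.20-fold below treated monolayers (limma adjusted p = 0.00661), and this was the one call of the family that held under all 16 alternative settings. In 2D the difference on treatment was −1.0 (95% interval −1.52 to −0.49, limma adjusted p = 0.236), and in 3D it was larger by −0.93 (limma adjusted p = 0.203).

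The promoter sequences of these genes are shown because the 3 genes shared 1 order of groups in the probe sets that represent them. Another reason is that ABCC4 and ABCB6 hold a match to the core of the element bound by NRF2. NRF2 is a transcription factor of the response to oxidative and electrophilic stress, and MRP genes are among its textbook targets. The stretches are the 250 bases before the annotated start in RefSeq (GRCh38.p14), 5′ to 3′ on the strand of the gene. For each of these genes this is the outermost start of the RefSeq record, and other starts of the gene were not searched. They lie at chr13:95301452-95301701 (minus strand) for ABCC4, chr2:219218959-219219208 (minus strand) for ABCB6, chr10:99782390-99782639 (plus strand) for ABCC2 and chr4:88231627-88231876 (minus strand) for ABCG2. Capitals mark TGACNNNGC (the NRF2 element core) and GGGCGG (the GC box) on either strand.
ABCC4: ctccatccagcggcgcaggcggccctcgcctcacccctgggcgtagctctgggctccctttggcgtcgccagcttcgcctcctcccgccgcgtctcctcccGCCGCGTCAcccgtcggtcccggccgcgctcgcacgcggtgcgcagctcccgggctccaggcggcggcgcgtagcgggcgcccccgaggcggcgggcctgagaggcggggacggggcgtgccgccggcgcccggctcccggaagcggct
ABCB6: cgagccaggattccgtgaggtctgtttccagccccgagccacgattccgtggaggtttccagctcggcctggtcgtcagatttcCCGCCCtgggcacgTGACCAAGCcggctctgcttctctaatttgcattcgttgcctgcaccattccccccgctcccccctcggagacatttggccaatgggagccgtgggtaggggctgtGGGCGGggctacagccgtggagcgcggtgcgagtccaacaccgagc
ABCC2: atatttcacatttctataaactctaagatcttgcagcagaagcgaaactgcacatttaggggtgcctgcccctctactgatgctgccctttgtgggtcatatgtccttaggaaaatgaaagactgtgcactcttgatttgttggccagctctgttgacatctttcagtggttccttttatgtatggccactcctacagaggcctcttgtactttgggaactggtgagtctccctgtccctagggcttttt
ABCG2: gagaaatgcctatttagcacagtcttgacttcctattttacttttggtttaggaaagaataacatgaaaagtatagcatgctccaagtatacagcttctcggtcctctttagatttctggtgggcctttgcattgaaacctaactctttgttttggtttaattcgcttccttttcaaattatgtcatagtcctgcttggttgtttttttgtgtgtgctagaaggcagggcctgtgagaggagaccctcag

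The ABCC4 match begins at −149 and the ABCB6 match at −152 from the annotated start, and the stretches of ABCC2 and ABCG2 hold neither motif. The 4 stretches differ widely in base composition, with 80.4% G and C for ABCC4, 64.4% for ABCB6, 45.6% for ABCC2 and 40% for ABCG2, around a median of 58% over all promoters. Promoter entries matched 33 of the 45 genes, among them 11 of the 14 genes called in at least 1 comparison. TGACNNNGC was found in 6 of the 33 and in 3 of the 11 (ABCB6, ABCC4 and ABCD4), and in 11% of all 27305 promoters of this length. Motifs chosen after the expression values had been seen were the AP-1 site TGANTCA (1 of 33 and 0 of 11, in 6.6% of all), the E-box CACGTG (4 of 33 and 1 of 11, in 6.49% of all) and GGGCGG (18 of 33 and 7 of 11, in 42.3% of all). Both strands were searched, and letters of TGACNNNGC and TGANTCA can overlap, as those of the first and CACGTG do in ABCB6. A match describes these letters and not a site in use, and the absence of one says nothing about the factor.

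ABCC1 (MRP1, chr16:15949143-16143053), the broad exporter of glutathione conjugates, followed culture type more than treatment. Its log2 values were 11.85 and 12.04 in 2D controls, 11.94 and 12.13 in treated 2D, 10.63 and 10.57 in 3D controls, and 10.13 and 9.95 in treated 3D cultures. Both 2D groups overlapped, and both 3D groups lay more than 1 log2 unit below them without overlap. Control spheroids were 2.54-fold below control monolayers and treated spheroids 3.97-fold below treated monolayers (limma adjusted p = 0.013 and 0.00276). The second probe set of ABCC1 gave similar values, −1.37 and −2.03. Treatment in 3D moved ABCC1 by −0.55 on the log2 scale, with a limma adjusted p of 0.0529 that crossed the threshold under 4 of 16 alternatives.

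ABCC3 (MRP3, chr17:50634881-50692253), a basolateral exporter of glucuronides, had log2 values of 13.29 and 13.47 in 2D controls, 13.09 and 13.24 in treated 2D, 12.26 and 12.23 in 3D controls, and 11.72 and 11.53 in treated 3D cultures. Control spheroids were 2.19-fold below control monolayers (limma adjusted p = 0.016), a call lost without either 3D control array. Treatment in 3D lowered it by a smaller step (log2 fold-change −0.62, limma adjusted p = 0.0352), and this call was lost without any 1 array other than treated 3D replicate 1. The gene has 5 probe sets, which disagreed in size. On treatment in 3D they gave −0.62, −0.57, −0.32, 0.02 and −0.83, of which the first 2 passed, and between controls they gave −1.13, −1.55, −2.68, −0.68 and −1.65, of which the first 3 passed. The last of them had values of 6.21 and 8.70 on the 2D control arrays, a wide gap between replicates.

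ABCC10 (MRP7, chr6:43427541-43451994) had log2 values of 7.44 and 7.69 in 2D controls, 7.42 and 7.45 in treated 2D, 6.51 and 6.36 in 3D controls, and 5.68 and 5.87 in treated 3D cultures. Like ABCC1 it overlapped between the 2D groups and was lower in 3D, by 2.19-fold in controls and by 3.15-fold in treated cultures (limma adjusted p = 0.0198 and 0.0043). The first of these calls was lost without any 1 of the treated 2D or 3D control arrays. Its response in 3D (−0.65, limma adjusted p = 0.0427) was not called when any 1 of the 8 arrays was left out. Its second probe set, which can cross-hybridize by its design, gave −0.11 for that response. Between controls it gave −1.06 and between treated cultures −0.64, and it passed in neither (limma adjusted p = 0.139 and 0.321). ABCC5 (MRP5), another exporter of cyclic nucleotides, was above background in every group and passed in no comparison, with a log2 fold-change of 0.37 on treatment in 3D.

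**Figure D3:**
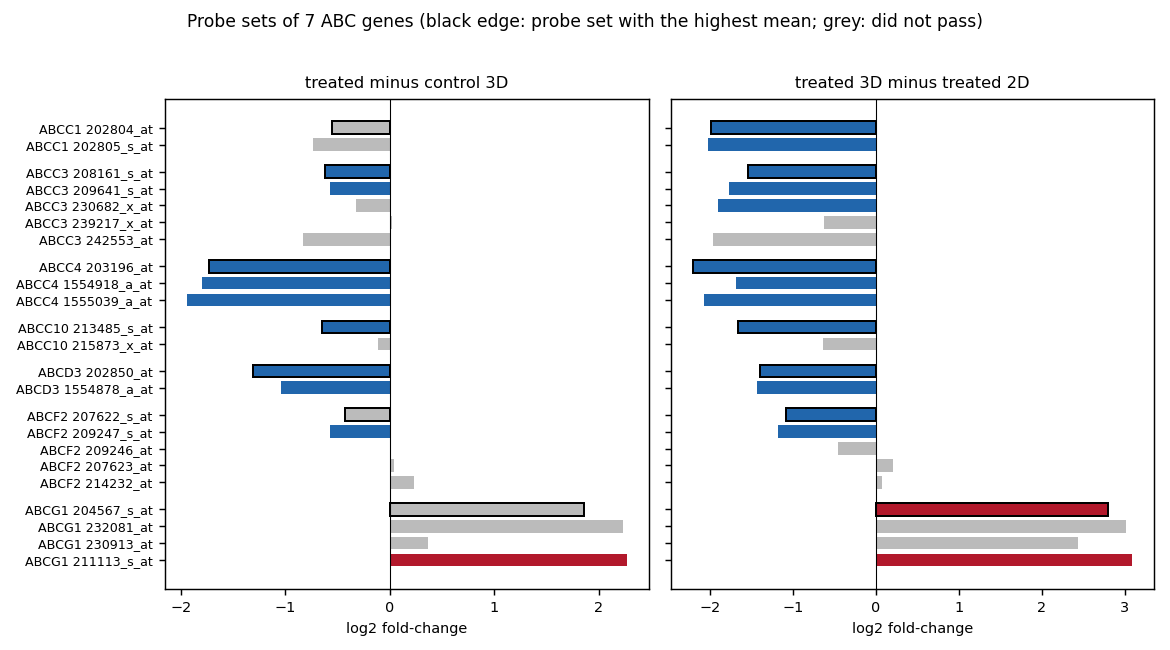
Log2 fold-change (x axis) of every above-background probe set of 7 ABC genes (bars) for treatment of 3D cultures (left) and for treated 3D against treated 2D cultures (right). A black edge marks the probe set that represents the gene, and grey marks those that did not pass at a limma adjusted p of 0.05. All 3 probe sets of ABCC4 passed in both panels, those of ABCC3 ranged from −0.83 to 0.02 in the left panel, and those of ABCG1 lay between 0.37 and 2.27 there.

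The sterol exporter ABCG1 (chr21:42199689-42297244) moved the other way. Its log2 values were 8.37 and 7.83 in 2D controls, 8.81 and 7.64 in treated 2D, 9.27 and 9.04 in 3D controls, and 11.22 and 10.82 in treated 3D cultures. Both treated 3D arrays lay above the other 6, while the 2D groups overlapped and replicate 1 was the higher array in each. Treated spheroids were 6.96-fold above treated monolayers (95% interval of the log2 fold-change 1.55 to 4.05, limma adjusted p = 0.0248), a call that was lost without any 1 array other than treated 2D replicate 1. On treatment in 3D the log2 fold-change was 1.86 (standard error 0.46), with a limma adjusted p of 0.0904. Of the 3 other probe sets of ABCG1, the one with the lowest mean passed for this response (2.27, limma adjusted p = 0.0255), and the others gave 2.23 and 0.37 and did not.

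ABCA1 (chr9:104781006-104928155), which loads cholesterol onto apolipoprotein A-I, had group means of 5.23 ± 0.18 in 2D controls, 5.59 ± 0.21 in treated 2D, 5.81 ± 0.11 in 3D controls and 6.12 ± 0.21 in treated 3D cultures (SD, n = 2 arrays each). No comparison of it passed, with a log2 fold-change of 0.31 on treatment in 3D (limma adjusted p = 0.494). Around both exporters, 12 genes of sterol efflux and of the oxysterol receptor LXR were measured. On treatment in 3D, 1 was higher and 2 were lower, close to the shares of 8.75% higher and 19.4% lower among genes with a mean of at least 4. LCAT, which esterifies cholesterol on lipoproteins, rose by 0.92 on the log2 scale, while the phospholipid remodeling enzyme LPCAT3 fell by 1.27 and the lipogenic factor SREBF1 fell by 0.99 (limma adjusted p = 0.0156, 0.0312 and 0.0249). The mean of LCAT was 4.46 with an SD of 0.00 in both 2D groups and in 3D controls, and 5.38 ± 0.23 in treated 3D cultures. Its rise thus started from a value that did not vary between arrays. Both LPCAT3 and SREBF1 are textbook LXR targets, as are ABCA1 and ABCG1.

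Of the 13 ABCA genes, ABCA12 was the one called in any comparison. ABCA12 (chr2:214931542-215138626) loads lipid into the lamellar granules of skin. Its log2 values were 4.94 and 4.92 in 2D controls, 4.95 and 5.14 in treated 2D, 4.18 and 3.75 in 3D controls, and 2.72 and 2.86 in treated 3D cultures, where it came close to the array medians. Treated spheroids were 4.78-fold below treated monolayers (limma adjusted p = 0.00457) and 2.26-fold below control spheroids (limma adjusted p = 0.0241). The second of these calls was lost under 8 of 16 alternatives, 6 of which left out an array. For ABCA8 the difference of 3D from 2D controls was −1.60 without passing (limma adjusted p = 0.1), with replicates up to 0.79 apart. The pseudogene ABCA17P lay near background in both 2D groups and at 4.75 and 3.25 in 3D controls.

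ABCB6 and ABCB10 of mitochondria and ABCD3 of peroxisomes fell on treatment of spheroids. ABCB6, a porphyrin transporter, had group means of 8.34, 7.33, 7.41 and 6.48 in 2D controls, treated 2D, 3D controls and treated 3D cultures, and was lower in 3D in both controls (−0.92, limma adjusted p = 0.0206) and treated cultures (−0.86, limma adjusted p = 0.0106). ABCB10, which acts in heme synthesis of erythroid cells, had group means of 9.05, 8.80, 8.91 and 7.99 in the same order. Its fall on treatment in 3D was 1.88-fold (limma adjusted p = 0.0213), a call lost without any 1 of the 3D arrays. ABCB8 and the lysosomal peptide transporter ABCB9 passed in no comparison. Of 8 genes of heme and iron-sulfur synthesis, 1 was higher and 1 lower on treatment in 3D, where the shares were 8.75% higher and 19.4% lower among genes with a mean of at least 4. SLC25A37 (mitoferrin-1), the mitochondrial iron importer that works with ABCB10, rose by 2.45 (limma adjusted p = 0.0227), and the cysteine desulfurase NFS1 fell by 1.34 (limma adjusted p = 0.00928).

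ABCD3 (PMP70, chr1:94385131-94518663), which imports branched and dicarboxylic acyl-CoA into peroxisomes, had log2 values of 11.28 and 11.19 in 2D controls, 10.85 and 11.09 in treated 2D, 11.01 and 10.75 in 3D controls, and 9.64 and 9.49 in treated 3D cultures. The other 6 arrays lay within 0.53 of each other, and both treated 3D arrays lay over 1 log2 unit below the lowest of them. Treatment in 3D lowered ABCD3 2.49-fold (log2 fold-change −1.31, standard error 0.13, limma adjusted p = 0.0116), and its second probe set gave −1.04 (limma adjusted p = 0.0204). The call was lost under 1 of 16 alternatives. The response in 3D differed from that in 2D by −1.05 (limma adjusted p = 0.0854), so a difference between responses was not shown. ABCD4, which moves cobalamin out of lysosomes, was lower in treated 3D than in treated 2D cultures (−0.56, limma adjusted p = 0.027) and had a mean of 7.99 in both control and treated 3D cultures.

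Of 9 peroxisome genes that work beside the ABCD proteins, 6 fell on treatment in 3D and none rose, where 10.8% of all genes and 19.4% of genes with a mean of at least 4 were lower. They were the acyl-CoA synthetase SLC27A2 (−1.44), the enzymes of peroxisomal β-oxidation EHHADH (−1.44), ACAA1 (−0.94) and HSD17B4 (−0.77), and the membrane assembly factors PEX3 (−1.08) and PEX19 (−0.91), with limma adjusted p from 0.00213 to 0.0351. The median log2 fold-change of the 9 was −0.91. For PEX19 and HSD17B4 the response itself was more negative in 3D than in 2D, by −1.04 and −0.63 (limma adjusted p = 0.0221 and 0.0153).

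Among the soluble members, ABCF2 and ABCF3 were called in 1 comparison each by the probe set that represents them. ABCE1, which splits ribosomes after translation ends, had values between 10.10 and 10.52 on all 8 arrays and passed in no comparison. Its second probe set was lower in treated 3D than in treated 2D cultures (−0.99, limma adjusted p = 0.0321). ABCF2 (chr7:151211484-151227205) had log2 values of 9.14 and 9.57 in 2D controls, 9.43 and 9.66 in treated 2D, 9.02 and 8.73 in 3D controls, and 8.52 and 8.38 in treated 3D cultures. It was 2.13-fold lower in treated 3D than in treated 2D cultures (limma adjusted p = 0.0315), a call lost without any 1 of the treated arrays or of the 3D controls. Its second probe set also passed on treatment in 3D (−0.57, limma adjusted p = 0.0273) and between controls (−0.65, limma adjusted p = 0.0288), where the first gave −0.43 and −0.48 and did not. ABCF3 was 1.72-fold lower in the same comparison (limma adjusted p = 0.0148), and ABCF1 passed in none. The 9 translation partners, among them the ribosome rescue factor PELO, had a median log2 fold-change of 0.12 on treatment in 3D. Between treated cultures 1 of them was higher and 2 were lower in 3D. There 9.06% of all genes were higher and 14.5% lower, and 15% and 26.6% of genes with a mean of at least 4.

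The enzymes and carriers that work with the efflux pumps were also followed on treatment in 3D. Of 14 genes of glutathione supply and conjugation, 9 fell and none rose, with a median log2 fold-change of −0.55. In this comparison 10.8% of all genes and 19.4% of genes with a mean of at least 4 were lower, and 5.53% and 8.75% were higher. The largest falls were those of the glutathione transferases GSTA4 (−1.57, limma adjusted p = 0.0141) and GSTA1 (−1.39, limma adjusted p = 0.0154). GSTA1 was dim, with a mean of 3.99 in 3D controls, where that of GSTA4 was 9.95. In both 2D groups (mean 2.52 in each) and in treated 3D cultures GSTA1 lay close to the array medians. Its fall was thus a return from a higher value in 3D controls to near background. Next came GCLC (−1.13, limma adjusted p = 0.0241), which catalyzes the first step of glutathione synthesis, and the sulfotransferase SULT1A1 (−1.09, limma adjusted p = 0.00988). Of 8 xenobiotic sensors and NRF2 genes, 2 fell, a share close to the 19.4% of the brighter genes. They were the coactivator PPARGC1A (−2.32, limma adjusted p = 0.0101) and the aryl hydrocarbon receptor AHR (−0.34, limma adjusted p = 0.0202).

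Of 14 uptake carriers, 3 fell and 1 rose on treatment in 3D, and 4 of the 14 were near background in all groups. The shares were 19.4% lower and 8.75% higher among genes with a mean of at least 4, and 10.8% and 5.53% among all genes. The organic anion importer SLCO2B1 fell by 3.00 on the log2 scale and SLC47A1, a proton-coupled exporter of organic cations, fell by 0.78 (limma adjusted p = 0.00508 and 0.0454), while SLC22A4, a carrier of ergothioneine, rose by 2.03 (limma adjusted p = 0.0316). SLC51B, a subunit of a basolateral steroid and bile acid carrier, fell by 5.13 (limma adjusted p = 0.00223). The response in 3D minus that in 2D was −4.40 for SLC51B, −2.90 for SLCO2B1 and −2.47 for PPARGC1A (limma adjusted p = 0.0142, 0.0287 and 0.0454). Of the 3 ABC family members under other symbols, 1 was higher on treatment in 3D. TAP1, a subunit of the peptide transporter of antigen presentation, had mean log2 values of 8.58 in control and 10.47 in treated spheroids and rose by 1.88 (limma adjusted p = 0.0102). TAP2, the other subunit, had a difference of 0.77 that did not pass (limma adjusted p = 0.0603) and was lower in treated 3D than in treated 2D cultures (−0.96, limma adjusted p = 0.0264), whereas TAP1 was higher there (1.35, limma adjusted p = 0.0142). The chloride channel CFTR was near background in all 4 groups.

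**Figure D4:**
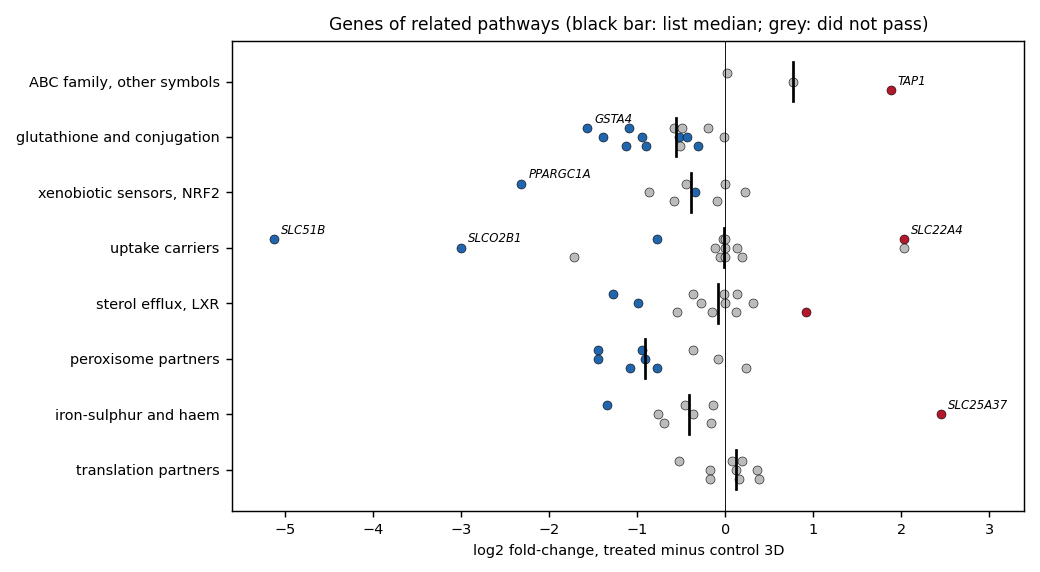
Log2 fold-change on treatment in 3D (x axis) of the genes of 8 related lists (rows), 1 point per gene, with the list median as a black bar. Red and blue mark genes called higher and lower by limma at an adjusted p of 0.05, and grey those that did not pass. Blue points make up 9 of 14 glutathione and conjugation genes and 6 of 9 peroxisome genes, and TAP1, SLC22A4 and SLC25A37 are the labelled red points.

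Across the whole family, both treated 3D arrays lay below the other 6 arrays for 16 of the 45 genes, or 35.6%, against 20.3% of all genes. Among genes with a mean of at least 4 the shares were 65.2% of the 23 ABC genes and 36.2% of all. These 16 are the 9 genes that fell on treatment in 3D and ABCA5, ABCA7, ABCA8, ABCC1, ABCE1, ABCF2 and ABCF3, whose values in that comparison did not pass. The members that were not called in any comparison, although above background, had log2 fold-changes on treatment in 3D from −1.51 (ABCA17P) to 0.37 (ABCC5).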

How the data were processed

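The authors made the deposited log2 expression values from Affymetrix U133 plus 2.0 arrays with GCRMA, which corrects background and reduces the probes to 1 value per probe set, and the labels name limma 3.6.9. No further scaling was applied here. Precision is limited by the number of arrays. Of 54675 probe sets, 62 controls were left out and 54613 tested. Of these, 41091 name 1 gene, 1801 name several and 11721 are unnamed in the reference table. Group means were compared with limma 3.58.1 (lmFit and eBayes) in R 4.3.3 on all 8 arrays, with 4 residual degrees of freedom, a prior of 0.347, p-values adjusted by Benjamini-Hochberg over the 54613 probe sets, and 0.05 as threshold. This model was tested on simulated data. Shares of all genes use 1 probe set per gene, that with the highest mean.

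The ABC genes and the related lists were chosen with earlier results of these data known. Values on every array are given for members called with a log2 fold-change of at least 1 in size, and up to 4 called genes per related list are named; for the peroxisome list all 6 are. Motif counts cover promoters of 250 bases from RefSeq. Deviations of same-numbered arrays from their group means were compared over the 21448 probe sets with a mean of at least 4, and the correlations ranged from −0.0213 to 0.296, so the numbers were not taken to pair the arrays. Each of these was tried as an alternative: the replicate number as a block, arrays quantile-normalized or centred on their medians, dim probe sets removed, an intensity trend, the most changed probe set of a gene, p-values adjusted over genes, a fit of 4 arrays only, and each array left out in turn. Chromatin data were not analysed here. Python 3.11.15 with matplotlib 3.10.9 was used for plots.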

Additional observations from a re-analysis of the deposited data

Results flagged for a closer look

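ABCC4 stood out because its response to treatment differed between culture types by a test of the difference itself. The log2 fold-change was −1.73 in 3D and −0.58 in 2D, a difference of −1.15 (limma adjusted p = 0.0456). This call was lost under 8 of 15 alternatives. Other ABCC4 probe sets above background gave −1.15 and −1.67 and did not pass (limma adjusted p = 0.0708 and 0.105). As the 1 call among 45 ABC genes it makes up 2.22% of them, where 3.26% of all genes were called. Groups of 2 arrays are too small for a test of outlying arrays.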

How the results depend on the processing

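No log2 fold-change of a called ABC gene changed sign under any alternative. Of 543 single-gene values over 34 pairs of gene and comparison, 399 kept their side of the threshold, 138 lost it and 6 gained it. With the replicate number as a block, the counts of called ABC genes were 5 in place of 9 for treatment in 3D and 0 in place of 1 for the difference between responses. They were 6 in place of 8 between controls and 13 in place of 14 between treated cultures. The numbers were not taken to pair the arrays, but the check cannot exclude it. Its correlation was 0.296 between the 2D groups and 0.115 between the 3D groups. A fit of only the 4 arrays of a comparison called 1 gene for treatment in 3D, 1 between controls and 1 between treated cultures, since it leaves 2 residual degrees of freedom. The filter on dim probe sets, which adjusts over fewer of them, called 1 gene for treatment in 2D, 3 for the difference between responses and 14 between controls. For the difference between responses, subtraction of array medians called 3 genes and the probe set with the largest change 0, and the cause was not tested. Leaving out 1 array gave 3 to 8 calls for treatment in 3D, 0 to 3 for treatment in 2D, 0 to 5 for the difference between responses, 2 to 6 between controls and 10 to 13 between treated cultures. Without treated 3D replicate 2, 4 of the 8 calls for treatment in 3D were higher, and all 4 were of genes near background in 3 or 4 groups. With a group reduced to 1 array, that array is assumed to vary like the others. Changes of genes near background cannot be seen on these arrays.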
